A study of Mus musculus with 6 samples.

Results

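Histone genes encode the proteins that package DNA into chromatin, and 59 of the 15643 genes in the deposited table belonged to them. They were chosen by gene symbol: linker histones (H1f), clustered H2A, H2B, H3 and H4 genes (H2ac, H2bc, H3c, H4c and older Hist1 names), and the variants H2az, H2ax, H2aj, Macroh2a and H3f. The symbols divided them further into 46 replication-dependent genes and 13 replacement genes. The cells were mature medullary thymic epithelial cells (mTEChi) sorted from thymi of NOD mice, a strain prone to autoimmune diabetes, at an age of 4.5 weeks. There were 3 libraries with the genotype Aire+/+ (numbers 745, 750 and 753) and 3 with the genotype Aire-/- (numbers 746, 748 and 749). The comparison asks which histone transcripts differ in these cells when Aire, a regulator that lets them express proteins of other tissues, is mutated. The labels give neither the deleted part of the allele nor whether each number was a separate animal, and p-values therefore refer to the spread between libraries.

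DNA is wound around a core of the histones H2A, H2B, H3 and H4, and linker histone H1 binds where it enters and leaves. Replication-dependent histone genes lie in clusters, have no introns as a rule and are made in S phase. Their mRNAs end just past a conserved stem-loop, which the stem-loop binding protein holds, and carry no poly(A) tail. Some of these genes also give polyadenylated transcripts, for example in differentiated cells. Replacement histones such as H3.3, H2A.Z and macroH2A are made throughout the cell cycle from polyadenylated mRNAs. The libraries were made by MARS-seq, which captures poly(A) tails and tags each captured molecule near its 3′ end with a unique molecular identifier (UMI). Levels are CPM, the UMIs of a gene relative to a library size after TMM scaling. A UMI stands for 1 captured molecule and does not grow with gene length, but the share of a gene's transcripts that carries a tail is not known.

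The 3′ ends are shown because a stem-loop end and a poly(A) end are captured differently. In the GENCODE transcripts, a stem-loop after the stop codon was found in 30 of the 59 genes, of which 29 were replication-dependent and the other was H2ax. There were 8 different 16-base stem-loops, and 16 genes shared the commonest. In the lines below, the stem-loop of the mRNA strand is in capitals with 7 bases on each side.
H2ac4: aaacaaaGGCTCTTTTCAGAGCCacccaca
H2ac7: aaacaaaGGCTCTTTTCAGAGCCatccact
H4c4: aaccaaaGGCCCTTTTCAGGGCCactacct
H4c8: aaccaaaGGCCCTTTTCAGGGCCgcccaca
H4c9: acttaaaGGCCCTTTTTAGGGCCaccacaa
H2ac4 and H2ac7 carried the commonest stem-loop, that of H4c4 and H4c8 was shared by 5 genes, and that of H4c9 by 2. The annotated transcript ended 11 nt past the stem-loop in H2ac4, 42 nt past it in H2ac7 and 46 nt past it in H4c8. It ran on for 770 nt in H4c4 and for 330 nt in H4c9. Its last 40 nt hold a poly(A) signal in H4c8 and H4c9, but not in H4c4, H2ac4 or H2ac7. H2ac10 has no annotated 3′ UTR to search.

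Of the 46 replication-dependent genes, 12 were annotated to end within 50 nt of the stem-loop, and their median level over all 6 libraries was 3.48 CPM. Another 15 ended within 50 nt of the stop codon, with a median of 2.75 CPM. All but H3c13 stopped at most 2 nt past it, so their annotation holds no 3′ UTR and their real ends are not known. The 17 that ran more than 50 nt past the stem-loop had a median of 6.30 CPM. H2bc4 and H2bc21 ran on without a stem-loop, and H2bc4, an H2B gene, stood far above every other replication-dependent gene at 283 CPM. Levels across these classes are a description, since genes of 1 class share sequences and libraries. Near-identical copies, described below, were found for 12 of the 12, 13 of the 15 and 10 of the 17 genes. Neither H2bc4 nor H2bc21 had any.

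Library totals ran from 1014581 to 2887321 UMIs. Histone genes took 2527 to 6909 UMIs of a library, or 0.181% to 0.249%, with the lowest and the highest share both in Aire-/- libraries. In each library 56 to 59 of the 59 genes had a UMI. Replicates differed by more than sampling noise (chi-square per degree of freedom 3.02 to 6.83). Gapdh, a glycolysis gene, was almost absent from libraries 753 and 746 (90 and 28 UMIs, against 2245 to 4166 elsewhere), so results are also given without that pair where they change. Aire itself had 6290, 6783 and 7290 UMIs across Aire+/+ libraries against 4772, 8298 and 8372 across Aire-/- libraries. It was higher in the latter by 1.10 on the log2 scale (edgeR adjusted p = 7.78e-05). Since the deleted part of the allele is not given, a 3′ tag cannot check the genotype here. The mTEC markers Epcam and Fezf2 were present in every library, at 257 to 321 and 619 to 838 CPM.

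Captured transcripts of replication-dependent histone genes were together more abundant in cells labelled Aire-/-. Their summed level was 405, 461 and 511 CPM across Aire+/+ libraries against 728, 734 and 598 CPM across Aire-/- libraries. Every Aire-/- library stood above every Aire+/+ library, and the means were 459 ± 53.1 and 687 ± 76.4 CPM (SD, n = 3 each), a ratio of 1.495. The sums have no test of their own. H2bc4 alone held 50.2% of these UMIs, and without it the sums were 214 ± 34.7 and 365 ± 52.8 CPM, a ratio of 1.71. With library totals in place of TMM scaling the ratio of the class was 1.31, and the libraries still did not overlap. In sorted bulk cells, a change in the cells present and a change in RNA per cell cannot be told apart. Nor can a change in the share of these transcripts that carries a poly(A) tail.

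Replacement histone genes, which held most histone UMIs, had nearly equal sums. They came to 1563, 1839 and 1632 CPM across Aire+/+ libraries against 1888, 1839 and 1438 CPM across Aire-/- libraries. The genotypes overlapped, with means of 1678 ± 144 and 1721 ± 247 CPM (SD, n = 3 each). The ratio of 1.03 turned to 0.900 with library totals and to 0.963 without libraries 753 and 746. Replication-dependent genes made up 24.0% of all histone UMIs, while the H3.3 genes H3f3a and H3f3b made up 39.4%.

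**Figure D1:**
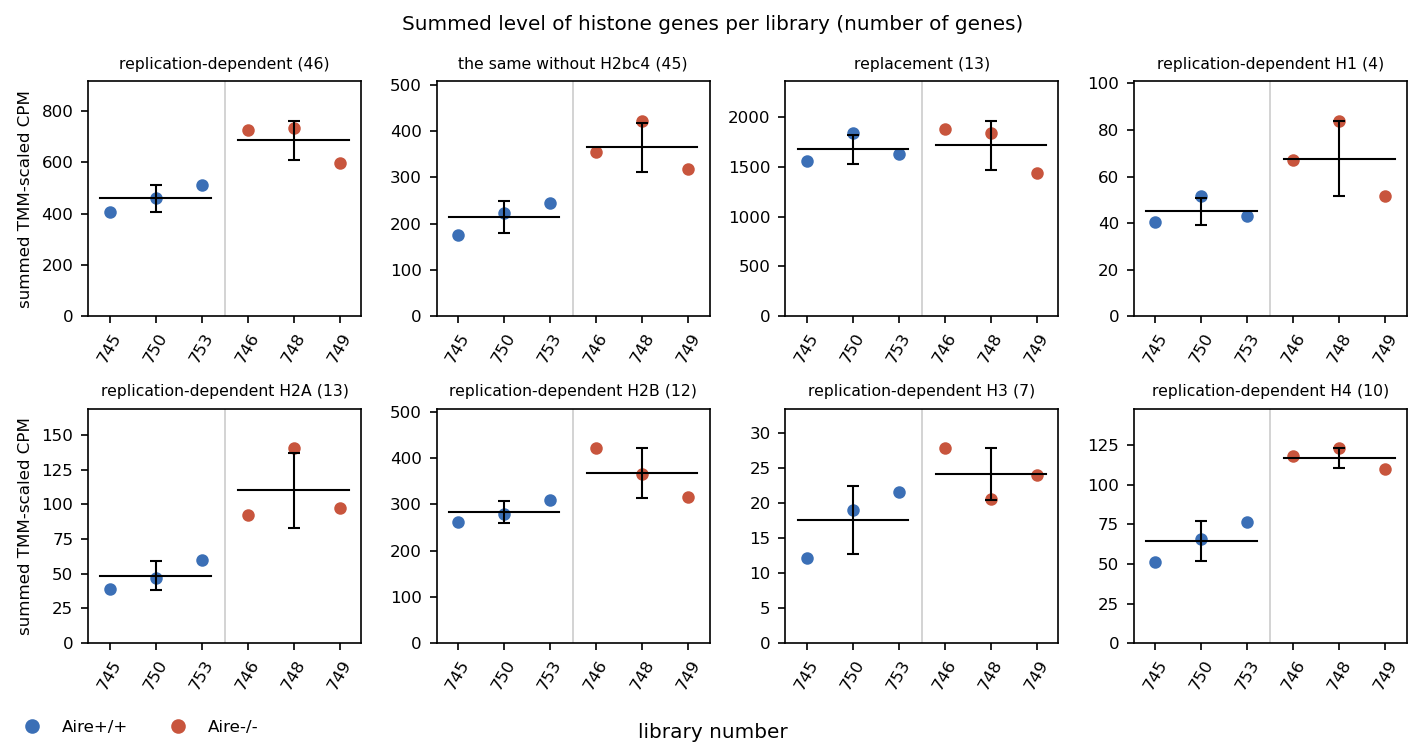
Summed TMM-scaled CPM of histone classes and families (vertical axes, from 0) in each library (horizontal axes, library numbers), with the mean as a line and the SD as a bar (n = 3). All Aire-/- libraries lie above all Aire+/+ libraries for the replication-dependent class (598 CPM and more against 511 CPM and less), and they overlap for the replacement class.

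The core histone families of the replication-dependent class differed in the size of this gap. H2A genes went from 48.7 ± 10.4 to 110 ± 26.8 CPM (SD, n = 3 each), a ratio of 2.26, which was 2.76 without libraries 753 and 746. H4 genes went from 64.7 ± 12.7 to 117 ± 6.43 CPM, a ratio of 1.81. The ratios were 1.501 for the 4 linker H1 genes, 1.37 for the 7 H3 genes and 1.30 for the 12 H2B genes. With library totals all 5 ratios stayed above 1, from 1.14 for H2B to 1.99 for H2A. The H3 libraries overlapped between genotypes, and the H2A and H4 libraries did not. The H1 and H2B libraries were only just apart. Their highest Aire+/+ and lowest Aire-/- sums were 51.6 and 51.8 CPM for H1 and 310 and 315 CPM for H2B. With library totals both families overlapped (54.6 and 46.05 CPM for H1, 317 and 280 CPM for H2B).

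Most of the class lies on chromosome 13, and the smaller cluster on chromosome 3 did not follow it. The 40 genes on chromosome 13 summed to 438 ± 52.6 and 668 ± 78.0 CPM (SD, n = 3 each), a ratio of 1.53. The 6 genes on chromosome 3 had 60, 69 and 61 UMIs across Aire+/+ libraries against 6, 54 and 32 across Aire-/- libraries. Their ratio of 0.870 rested on library 746 and was 1.14 without libraries 753 and 746.

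Counted gene by gene without any further filter, 35 of the 46 replication-dependent genes had a higher mean CPM across Aire-/- libraries and 11 a lower one. Every gene of the deposited table had at least 6 UMIs in some library, so the table may itself leave out rarer genes. The Aire+/+ libraries were the deeper ones, and what this does to the shares over all genes was not tested. Over all 15643 genes of the table the mean was higher for 42.4%. The Aire-/- libraries stood wholly above the others for 19 of the 46 and wholly below for 0 of them, against 13.2% and 24.5% of all genes of the table. Of the 13 H2A genes 12 were higher, of the 10 H4 genes 9, of the 7 H3 genes 4 and of the 12 H2B genes 6. Among the 13 replacement genes 9 were higher and 4 lower.

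**Figure D2:**
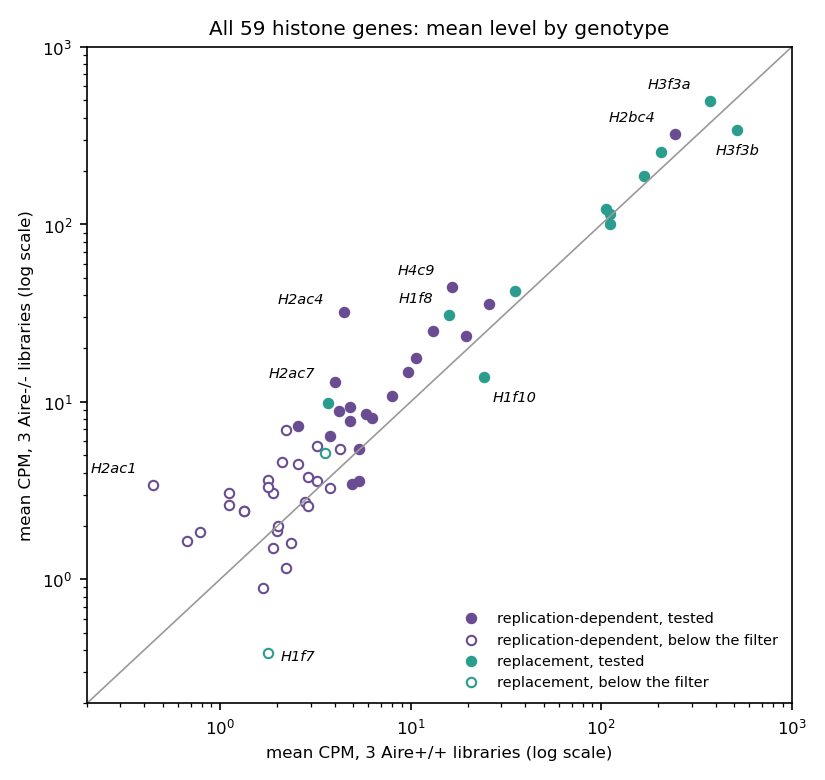
Mean TMM-scaled CPM of all 59 histone genes in the 3 Aire+/+ libraries (horizontal) and the 3 Aire-/- libraries (vertical), both on log scales, with a line of equal levels and open circles for genes below the filter on low counts. Replication-dependent genes lie mostly above the line (35 of 46), and H2ac4 lies farthest above it among tested genes.

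The filter on low counts kept 31 of the 59 genes for edgeR's quasi-likelihood test, 20 replication-dependent and 11 replacement genes. It asks for 4.26 CPM of the library total in at least 3 libraries. Of the 20 replication-dependent genes kept, 8 reached this in every Aire-/- library but not in every Aire+/+ library, so counts over the genes kept lean towards higher levels in Aire-/- cells. H2ac4 and H2ac10, called below, were among these 8, reaching it in 1 and in 0 Aire+/+ libraries. Among all 11956 genes tested, 20.7% passed an adjusted p of 0.05 (Benjamini-Hochberg over all genes), 8.59% being higher and 12.1% lower. Of the histone genes, 7 of 31 passed (22.6%), close to that background. Of these, 5 were higher (16.1%) and 2 lower (6.45%).

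By class, 4 of the 20 replication-dependent genes tested rose, 0 fell and 16 did not pass, these ranging in log2 fold change from -0.42 for H2bc21 to 1.83 for H2ac7. DESeq2 called 0 of the class lower as well, and 8 of the 20 had an unadjusted edgeR p under 0.05, against 31.5% of all genes tested. Their median log2 fold change was 0.67, beside -0.02 over all genes tested. The lean of the filter applies to this median, to the count of 4 that rose and to the 8 with an unadjusted p under 0.05. Without any filter the median was 0.69 over the 46 genes of the class, beside -0.09 over all genes of the table. Of the 11 replacement genes tested, 1 rose, 2 fell and 8 did not pass, with a median of 0.21. The Aire-/- libraries lay wholly above the Aire+/+ libraries for 12 of the 31 genes (38.7%), against 16.3% of all genes tested. The lean of the filter applies to this count too. Without the filter it was 20 of the 59 histone genes, against 13.2% of all genes of the table.

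**Figure D3:**
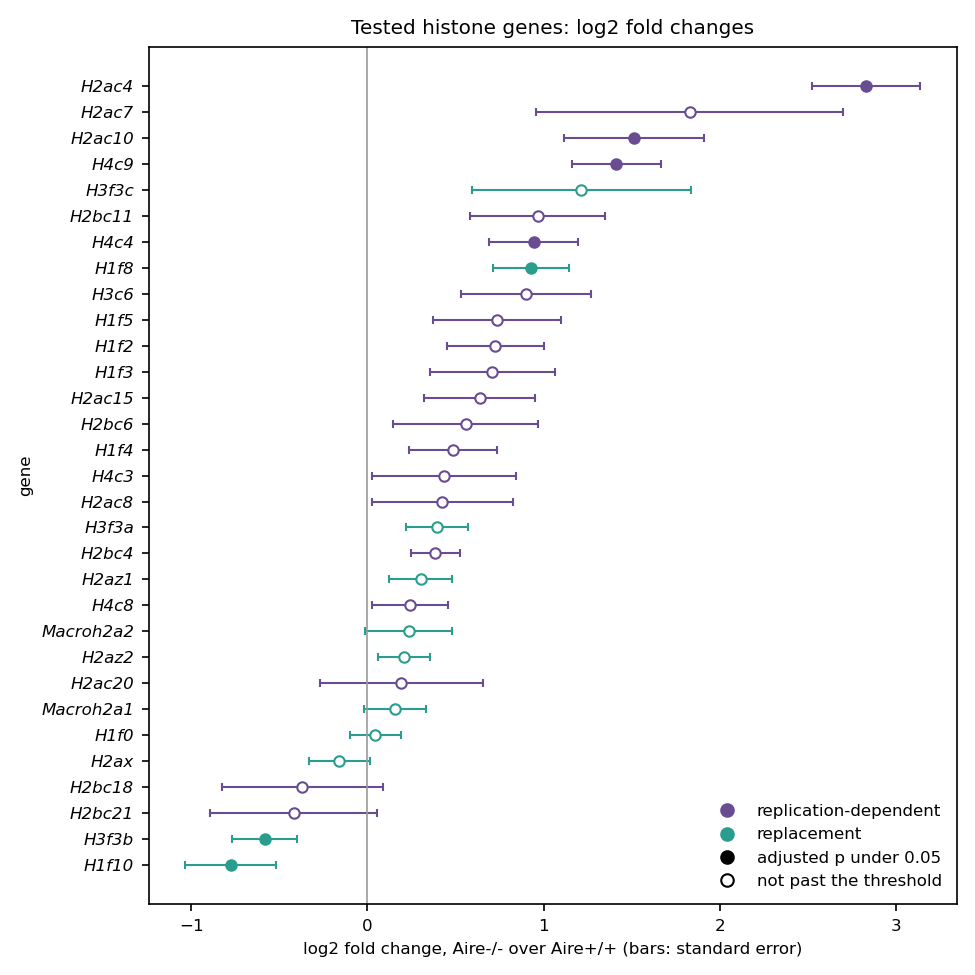
Log2 fold change of Aire-/- over Aire+/+ (horizontal axis, bars are standard errors) for the 31 histone genes tested, sorted by size. Filled circles passed an adjusted p of 0.05, and 26 of the 31 values lie above 0, from H1f0 at 0.04 to H2ac4 at 2.83. Over all genes tested 48.1% lie above 0, and the lean of the filter applies to the count of 26.

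H2ac4, an H2A gene of the chromosome 13 cluster (positions 23751088 to 23751592, plus strand, GRCm38), had the largest increase among histone genes tested. It had 11, 11 and 18 UMIs across Aire+/+ libraries against 28, 47 and 67 across Aire-/- libraries. As levels these were 3.64, 3.66 and 6.09 CPM against 29.0, 25.5 and 41.3 CPM. Each Aire-/- library thus held more H2ac4 molecules than any Aire+/+ library, although its total was smaller. The log2 fold change was 2.83 with a standard error (SE) of 0.31 (edgeR adjusted p = 2.94e-05), 7.11-fold.

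H4c9, an H4 gene elsewhere on that chromosome (positions 22040960 to 22041362, minus strand), rose as well. It had 40, 45 and 63 UMIs across Aire+/+ libraries against 47, 98 and 50 across Aire-/- libraries, or 13.2, 15.0 and 21.3 CPM against 48.6, 53.1 and 30.8 CPM. The genotypes did not overlap in CPM. The log2 fold change was 1.41 with an SE of 0.25 (edgeR adjusted p = 0.00125). H2ac4 and H4c9 were also the 2 histone genes among the 1474 selected in the authors' deposited table, with adjusted p-values there of 3.74e-11 and 6.87e-05. That selection was narrower than an adjusted p of 0.05. In the authors' DESeq2 results 5 histone genes reached that value, the others being H1f8 (0.0164), H3f3b (0.0223) and H4c4 (0.0358). H2ac10 and H1f10, called here by edgeR, did not reach it there.

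H4c4, a second H4 gene, and H2ac10, a second H2A gene, rose by less certain amounts. H4c4 had 28, 41 and 48 UMIs across Aire+/+ libraries against 22, 45 and 45 across Aire-/- libraries, or 13.1 ± 3.53 and 25.0 ± 2.53 CPM (SD, n = 3 each). Its log2 fold change was 0.94 with an SE of 0.25 (edgeR adjusted p = 0.0176), and 0.74 without library 745 (adjusted p = 0.0806). H2ac10 rested on few molecules, with 10, 7 and 6 UMIs across Aire+/+ libraries against 7, 17 and 9 across Aire-/- libraries. Its CPM did not overlap between genotypes (log2 fold change 1.51 ± 0.40 SE, edgeR adjusted p = 0.0160), but it did not pass with DESeq2, without library 750, 753 or 748, or without 753 and 746 together.

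H1f8 encodes the linker histone of the oocyte and was the replacement gene that rose. It had 43, 55 and 45 UMIs across Aire+/+ libraries against 35, 55 and 43 in the smaller Aire-/- libraries. Its levels were 14.2, 18.3 and 15.2 CPM against 36.2, 29.8 and 26.5 CPM, with every Aire-/- library above. The log2 fold change was 0.93 with an SE of 0.21 (edgeR adjusted p = 0.00720). Without libraries 753 and 746 it was 0.79 and did not pass (adjusted p = 0.0731).

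H3f3b, which with H3f3a encodes the replacement histone H3.3, fell. It had 1489, 1583 and 1553 UMIs across Aire+/+ libraries against 228, 808 and 571 across Aire-/- libraries, or 492, 527 and 526 CPM against 236, 438 and 352 CPM. The Aire+/+ libraries lay close together, while library 746 was lowest by far. The log2 fold change was -0.58 with an SE of 0.18 (edgeR adjusted p = 0.0405). Without library 746 it was -0.38 and did not pass (adjusted p = 0.0734), and it also missed the threshold without any 1 of the Aire+/+ libraries.

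H3f3a encodes the same protein and had the opposite sign. It stood at 320, 441 and 365 CPM across Aire+/+ libraries against 587, 518 and 377 CPM across Aire-/- libraries, and the genotypes overlapped. Its log2 fold change of 0.39 had a standard error of 0.17 and did not pass (edgeR adjusted p = 0.142). The summed level of the 3 replacement H3 genes was 894 ± 79.4 and 846 ± 113 CPM (SD, n = 3 each). The last 300 nt of H3f3a matched 52 other gene models, pseudogenes among them, so its count may include or lose reads of those copies, while H3f3b had no such match.

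H1f10, a linker histone made outside S phase, was the other gene that fell. It had 75, 86 and 58 UMIs across Aire+/+ libraries against 10, 33 and 21 across Aire-/- libraries, or 24.4 ± 4.52 and 13.7 ± 3.83 CPM (SD, n = 3 each). The libraries did not overlap, but the call was at the edge of the threshold (log2 fold change -0.78 ± 0.26 SE, edgeR adjusted p = 0.0498). It was lost with DESeq2 and without library 745, 750, 746 or 749 or the pair 753 and 746. A gene model on the opposite strand, Gm5577, overlaps it.

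**Figure D4:**
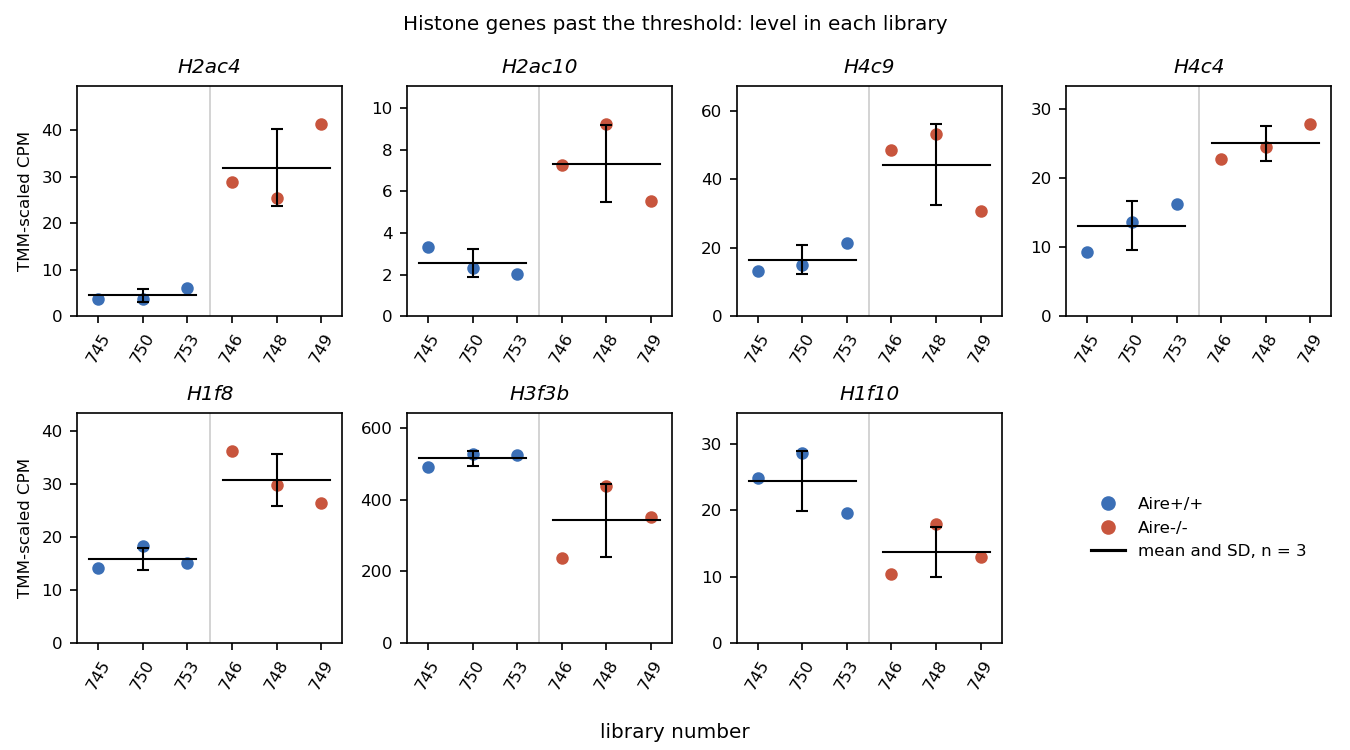
TMM-scaled CPM (vertical axes, from 0) in each library (horizontal axes, library numbers) of the 7 histone genes past the threshold, with the mean as a line and the SD as a bar (n = 3). In each panel the genotypes do not overlap. The H2ac4 libraries lie at 6.09 CPM or less in Aire+/+ and at 25.5 CPM or more in Aire-/-.

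The most abundant histone genes that did not pass the test changed by small factors. H2bc4 had 694, 717 and 791 UMIs across Aire+/+ libraries against 361, 574 and 454 across Aire-/- libraries, or 245 ± 19.96 and 322 ± 47.8 CPM (SD, n = 3 each). Every Aire-/- library was higher, and the log2 fold change was 0.39 with an SE of 0.14 (edgeR adjusted p = 0.0723). H2az1, the main H2A.Z gene, had a log2 fold change of 0.30, and H2az2, its paralogue, one of 0.21. Macroh2a1, which encodes a large H2A variant of silent chromatin, had one of 0.16, and H1f0, the linker histone of resting cells, one of 0.04. H2ax, whose product is phosphorylated at DNA breaks, stood at 111 ± 7.23 and 100 ± 24.8 CPM (SD, n = 3 each).

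Some clustered genes were high in single libraries. H2ac7 had 7, 14 and 15 UMIs across Aire+/+ libraries against 3, 66 and 0 across Aire-/- libraries. The excess was in library 748, and without that library its log2 fold change turned from 1.83 to -1.71. The 0 UMIs in library 749 allow up to 1.85 CPM. H2ac6 had 3, 6 and 29 UMIs across Aire+/+ libraries against 1, 3 and 22 across Aire-/- libraries, so 1 library of each genotype stood apart from its replicates.

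Below the filter were 28 histone genes, 26 of them replication-dependent. Those with most UMIs were H2ac6 with 64, H2aj, a replacement H2A, with 57, and H2bc12 with 53 over all libraries. None had 0 UMIs in one genotype and 10 or more in the other. The testis histones were chosen for mention after their values were seen, since these cells express germ cell genes. H2ac1, a testis H2A, had 1, 2 and 1 UMIs across Aire+/+ libraries against 6, 5 and 2 across Aire-/- libraries, a ratio of 6.59 (95% exact interval 2.03 to 27.7, counting error only). H1f7, a spermatid linker histone, had 6, 2 and 8 UMIs against 0, 1 and 1, which is 3.95-fold lower in Aire-/- with an interval of 0.928 to 35.4. H2bc1, a testis H2B, had 3, 9 and 8 UMIs against 0, 3 and 3, and its interval also spans equal levels.

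Near-identical copies limit what single clustered genes can show. In 39 of the 59 genes, 35 of them replication-dependent, the last 300 nt matched another gene over at least 80 nt at 90% identity or more. For 23 genes a match ran through the annotated 3′ end, which in many of them lies at or near the stop codon. H2ac4 matched 23 genes at up to 100% identity and 5 of them through its 3′ end at up to 91.8%. H2ac10 matched 23 genes and 19 through its annotated end at up to 98.7%. That end lies 1 nt past the stop codon of H2ac10, so these counts are not alike. H2ac4 and H2ac10 are both uncertain as single genes, since reads may be divided among copies. Each H2A gene of this pair also overlaps a microRNA gene model on the other strand, and the strand setting of the counts is not given in the sources used here. H4c9 matched 4 genes at up to 91.5% and none of them through the 3′ end, and H4c4, H1f8, H3f3b and H2bc4 had no match.

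The 11 replication-dependent genes without such a copy were also higher on average in Aire-/- libraries. They summed to 301 ± 32.2 and 409 ± 37.2 CPM (SD, n = 3 each), a ratio of 1.36. Without H2bc4 they summed to 44.6, 53.9 and 69.0 CPM across Aire+/+ libraries against 73.5, 94.3 and 93.04 CPM across Aire-/- libraries, a ratio of 1.56 with no overlap. With library totals these ratios were 1.19 and 1.36, and both sets then overlapped (up to 345 CPM in Aire+/+ against 332 CPM and more in Aire-/-, and without H2bc4 up to 70.7 against 70.0 CPM and more). Without copies, 8 genes were tested and 1 of them, H4c4, rose, beside 8.59% of all genes tested. Among so few genes this count does not stand apart from that share. Some of the 8 were kept through the Aire-/- libraries, so the lean of the filter applies here too. H2A genes without H2ac4 still summed to 44.3 ± 9.09 and 78.2 ± 32.5 CPM, the excess being largest in library 748 at 116 CPM.

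Most genes next to the ones that rose were higher too, as was most of the class, but they varied in size and mostly had few UMIs. H3c2 lies 753 bp from H2ac4 and was lower, with 15 UMIs over the Aire+/+ libraries and 3 over the Aire-/- libraries, a ratio of scaled UMIs of 0.405 (95% exact interval 0.0752 to 1.43, counting error only). H4c2, 5.35 kb from H2ac4, was higher with 10 and 13 UMIs, a ratio of 2.63 (1.07 to 6.71). H2ac11 lies 1.116 kb from H4c9 and stood at 3.78 and 3.29 CPM, whereas H2bc11, 1.84 kb away, stood at 4.23 and 8.89 CPM. Near H4c4, H2bc6 went from 5.81 to 8.57 CPM, H3c4 from 1.12 to 2.64 CPM and H2ac7, through library 748, from 4.02 to 12.96 CPM. H4c8, 2.397 kb from H2ac10, stood at 19.5 and 23.4 CPM. Also near H2ac10, H4c6 stood at 1.785 and 3.335 CPM and H1f3 at 4.80 and 7.80 CPM. H2bc12 near H4c9 stood at 3.225 and 5.635 CPM, and H3c3 near H2ac4 at 2.01 and 1.99 CPM. None of these neighbours passed the test or, below the filter, had one.

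The promoters of H2ac4 and H4c9 are shown because these genes passed the threshold under every alternative tried. The lines give 250 bases before the annotated start, 5′ to 3′ on the strand of the gene, from RefSeq on GRCm38.p6. H2ac4 is at chr13:23750838-23751087 on the plus strand and H4c9 at chr13:22041363-22041612 on the minus strand. Capitals mark the motifs searched on both strands. They were the CCAAT box, the TATAAA box and the octamer ATTTGCAT (ATGCAAAT where it lies on the other strand), and no match overlaps another.
H2ac4: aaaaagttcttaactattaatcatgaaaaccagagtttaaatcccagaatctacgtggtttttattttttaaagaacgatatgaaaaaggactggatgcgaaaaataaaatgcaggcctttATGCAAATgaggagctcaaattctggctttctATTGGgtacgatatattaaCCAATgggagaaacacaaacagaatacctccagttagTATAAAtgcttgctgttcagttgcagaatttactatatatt
H4c9: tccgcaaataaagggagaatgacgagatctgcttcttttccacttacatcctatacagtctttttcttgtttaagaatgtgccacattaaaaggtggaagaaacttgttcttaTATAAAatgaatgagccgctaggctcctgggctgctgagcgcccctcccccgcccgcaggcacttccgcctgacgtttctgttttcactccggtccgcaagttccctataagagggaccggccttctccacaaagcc
The H2ac4 window holds a TATAAA whose first base is 41 bases before the start, a CCAAT on each strand at 78 and 97 bases, and the octamer at 129 bases. The H4c9 window holds a TATAAA at 137 bases and neither of the other motifs. In 43 replication-dependent promoters of the same length, CCAAT was found in 86.0%, TATAAA in 53.5% and the octamer in 27.9%. Over all 32851 promoters of the table these shares were 33.8%, 12.4% and 1.60%. The octamer was found in 6 of 13 H2A and 6 of 11 H2B promoters and in 0 of 4 H1, 0 of 6 H3 and 0 of 9 H4 promoters. CCAAT was in every one of the H1, H2A, H2B and H3 promoters listed but in 3 of 9 H4 promoters. A match describes these letters and is not a bound site.

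Few genes of histone mRNA processing, histone deposition or the cell cycle passed the test, and their counts stand beside the 8.59% of all genes that rose and the 12.1% that fell. Of 15 tested genes of histone mRNA 3′ end formation, 1 rose and 0 fell. This was Srrt, a partner of the nuclear cap-binding complex, by 0.38 on the log2 scale (edgeR adjusted p = 0.0492), and the call held only under the changes of filter. With other scalings, DESeq2 or any library left out, 0 genes of that list rose. Of 31 histone chaperones and depositors, 0 passed in either direction, and their median log2 fold change was -0.16. Rbbp7, a histone-binding subunit of several chromatin complexes, had the smallest p of them and a log2 fold change of -0.45 (adjusted p = 0.137). Of 31 DNA replication genes, 1 fell and 0 rose. This was Rrm2, a subunit of ribonucleotide reductase, at a log2 fold change of -0.92 (adjusted p = 0.00364). Of 19 mitosis genes, 2 fell and 0 rose, Ccnb1, the mitotic cyclin B1, by -0.81 (adjusted p = 0.0192) and Kif23, a cytokinesis motor, by -0.71 (adjusted p = 0.0498). That count was 0 with DESeq2, without library 753 and without 753 and 746, and 6 with library totals. The summed level of the mitosis genes was 653 to 688 CPM in Aire+/+ and 470 to 606 CPM in Aire-/-.

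Of 12 tested histone-like genes outside the symbols used, 2 rose and 1 fell. Prm1, the protamine that replaces histones in sperm, had 90, 80 and 109 UMIs across Aire+/+ libraries against 0, 6 and 5 across Aire-/- libraries, a change of -3.63 on the log2 scale (edgeR adjusted p = 3.35e-05). H2aw, another H2A gene, had 41, 45 and 58 UMIs against 63, 78 and 41 and rose by 1.41 on the log2 scale (adjusted p = 0.00404). H2bu2 and H4f16, histone genes of the same list, had log2 fold changes of -0.37 and -0.35 and did not pass. Hmgn3, a nucleosome-binding protein, rose by 0.77.

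Marker lists of the sorted cells and of other thymic cells moved as well. Of 15 mTEC markers 7 rose, which were Aire, Krt8, H2-Aa, H2-Ab1, Cd74, Cd80 and Cd86. The rest ran in log2 fold change from -0.41 for Tnfrsf11a to 0.31 for Cldn4, with Epcam at 0.01 and Fezf2 at -0.14. The whole list summed to 41340 to 48942 CPM in Aire+/+ and to 72176 to 81719 CPM in Aire-/-. Most of it came from the antigen presentation genes Cd74, H2-Ab1 and H2-Aa (means 14595, 12017 and 10859 CPM in Aire+/+). In Aire-/- their means were 24308, 23760 and 18928 CPM. All 6 cortical epithelium markers rose, Ly75, an endocytic receptor, by 0.99 on the log2 scale, and the list summed to 420 to 654 CPM and to 908 to 1081 CPM. Without library 750 the number of cortical markers that rose was 3, and it was 4 with library totals or without 753 and 746. Of 5 stroma and vessel markers tested, Dcn and Col3a1 rose, and the 7 in the table summed to 78.3 to 119 CPM and to 176 to 646 CPM. Col3a1, a collagen gene, had 43, 22 and 17 UMIs against 190, 69 and 14, so its libraries overlapped and 746 stood far above the others. The count for stroma fell to 1 without library 746, 750 or 753 or the pair 753 and 746. Of 14 thymocyte markers 0 passed, and their sums of 257 to 463 CPM and 297 to 473 CPM overlapped. Ptcra, the pre-T cell receptor chain, had the smallest p among them (adjusted p = 0.173). Of 5 B cell markers Pax5 rose, and of 9 dendritic and myeloid markers Itgam fell, and neither list kept that call without 753 and 746. Of the markers in the table, none was at 0 in all libraries. Their part in the histone values was not tested.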

How the data were processed

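Gene expression was measured by MARS-seq in 6 libraries. The authors' deposited table gives UMI counts per gene symbol, raw per the file headers. Normalized counts (a signal scaled by the authors) and regularized log2 values deposited beside them were left out. Per the file headers, the table's log2 fold changes, p-values and adjusted p-values are DESeq2 results of the authors. Named in the submitters' processing notes are the build mm10, STAR 2.4.2a and HTSeq, beside bcl2fastq, cutadapt and DESeq2. For the annotation, the strand setting and reads with several matches, the choice is not given in the sources used here.

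Genotypes were compared with edgeR 4.0.16 in R 4.3.3 (glmQLFit, glmQLFTest, TMM, filterByExpr with min.count 10, genotype the only term), with Benjamini-Hochberg adjustment over the 11956 genes tested and a threshold of 0.05. Adjusted p-values are edgeR's unless the deposited table is named. A standard error is the absolute log2 fold change over the root of its F statistic. The test was checked on simulated counts. Alternatives were DESeq2 1.42.0, scaling by size factors or library totals, a min.count of 3, no filter, leaving out each library, and leaving out libraries 753 and 746. The members and gene lists were chosen with earlier results of these data known. All histone genes past the threshold are named, with the untested genes of most UMIs and the most abundant genes not called. Of each list up to 4 genes were taken by smallest p. Other genes of the mTEC and histone-like lists are named beside them. H2ac7 and the testis histones were named after their values were seen.

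Depth was 1014581 to 2887321 UMIs per library. The limit behind a count of 0 is 3 UMIs, which is 0.992 to 3.11 CPM of the scaled library size. Shares of a library have exact 95% intervals (the share of 0.181% runs from 0.175% to 0.188%), and intervals and floors cover counting error only. Intervals of ratios of summed UMIs are exact binomial.

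All 59 genes were matched to RefSeq. The 3′ ends were read from GENCODE transcripts of GRCm38, the last 300 nt were compared with every GENCODE transcript by blastn 2.17.0 (at least 80 nt and 90% identity), and promoters come from RefSeq on GRCm38.p6.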

Additional observations from a re-analysis of the deposited data

How the results depend on the processing

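No paired analysis was possible because the genotypes share no library number. H2ac4 (log2 fold change 2.59 to 3.16) and H4c9 (1.22 to 1.63) passed in every alternative. Of the fold changes of single histone genes under the alternatives, 333 kept direction and side of the threshold, 18 lost it, 5 gained it and 12 changed sign. With library totals, the median of all genes moved to a log2 fold change of -0.23, calls were 78.8% lower against 58.6%, 561 genes were higher, and 13 list genes were lower. DESeq2 called 1 histone gene lower, a replacement gene. Without libraries 753 and 746, 651 genes were higher, histone calls were 3 higher and 0 lower (replacement genes 0 and 0), and list genes were 12 higher and 2 lower. With each library left out, 618 to 1156 genes were higher and 1099 to 1899 lower, and 4 to 11 histone genes were higher and 0 to 2 lower. The 11 came without library 749, where H1f2, H1f4, H2ac7, H2bc4, H3f3a and Hist1h2an also rose. Replication-dependent genes were 3 to 9 higher, replacement genes 1 to 2 higher and 0 to 2 lower, and list genes 13 to 19 higher and 3 to 8 lower. Without any filter Hist1h2an and H2ac1 rose too. Without their most abundant member, class sums were 214 and 365 CPM (replication-dependent, Aire+/+ and Aire-/-) and 1163 and 1380 CPM (replacement). Leaving 753 and 746 out of the class sums, an alternative chosen after seeing the data, gave 433 and 666 CPM and 1701 and 1638 CPM.

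Signs changed for genes near 0 or with few UMIs. With library totals the log2 fold change was -0.156 for H1f0, -0.0135 for H2ac20 and -0.0418 for Macroh2a1. Without libraries 753 and 746 it was 0.0416 for H2bc18, -0.0461 for Macroh2a1 and -0.0792 for Macroh2a2. With each library left out, H1f0 ran from -0.0287 to 0.148, H2ac20 from -0.494 to 0.535, H2ac7 from -1.71 to 2.45, H2ac8 from -0.0686 to 0.842 and H2ax from -0.308 to 0.0227. Without library 748, H2ac20, H2ac7 and H2ac8 had their lowest values. The cause was not tested. Most replication-dependent genes had too few UMIs for a single test, and a gene at 0 in library 746 may stand at up to 3.11 CPM.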
